A study of Astatotilapia calliptera with 66 samples.

Results

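DNA methylation was compared between the livers of the littoral and the benthic ecomorph of *Astatotilapia calliptera* from Lake Masoko, with 12 fish each. These 24 RRBS libraries, out of 66 samples in the series, were chosen by the ecomorph in their labels. All were wild-caught adult males, without any experimental treatment, and DNA came from homogenised liver. The ecomorphs occupy different depths of this crater lake, the littoral near the shore and the benthic near the bottom, where oxygen is scarcer. A further 11 wild riverine males from the neighbouring river system served as the outside reference for the starting methylation level. In wild fish the ecomorph, its habitat, its diet and its genotype cannot be told apart. Fish are called by the IDs in the labels.

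In vertebrates most cytosines that are followed by a guanine (CG sites) carry a methyl group, and those in CG-rich promoters and active regulatory elements usually do not. Methylation patterns are copied at each cell division, differ between cell types and can change with age, environment and genotype. RRBS, reduced representation bisulphite sequencing, cuts DNA with MspI and reads CG-rich fragments after bisulphite treatment, which converts cytosines without a methyl group and leaves methylated cytosines. The value of each cytosine is the percentage of its reads that were methylated. In bulk liver, a change of methylation within a cell type and a change in the share of that cell type cannot be told apart.

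The table held 151900 cytosines found in all 35 RRBS fish, of which 147188 varied and were tested. The number of reads behind a single value is unknown, because only percentages were deposited, and the column names carry no more than the mark cov4. The 2 cytosines of a CG, read from opposite strands, gave a measure of the error of single values at 13948 pairs. Within a fish they differed by a median of 1.89 points over all pairs and by 15.0 points over the 1410 pairs at intermediate level, with a 90th percentile of 43.8 points there. Mitochondrial DNA, which is close to unmethylated, read 1.77% ± 1.02 (SD, n = 12) in littoral and 1.715% ± 0.784 (SD, n = 12) in benthic fish (two-sided permutation test, p = 0.886). In riverine fish it read lower, at 0.745% ± 0.328 (SD, n = 11). Of the lake fish, littoral G10G05 and G10H05 stood apart on the second principal component. Both had under 6 Mio mapped reads, and G10H05 had the fewest of the lake fish. Littoral G10H04 and benthic G10E05 had fewer reads than G10G05 and did not stand apart. The part of depth in this component was not tested.

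Benthic livers were more methylated than littoral livers at most of the cytosines that separated them. A total of 2583 cytosines (1.75% of those tested) differed with an adjusted p under 0.05 by limma and a difference of at least 25 percentage points. Of these, 2253 (1.53% of those tested) were higher in benthic fish and 330 (0.224%) were lower, so that 87.2% of the differing cytosines were higher in benthic fish. At an unadjusted p under 0.05 there were 14242 cytosines, 10024 of them higher in benthic fish. Over all tested cytosines the median difference was 0.170 points, and 52.9% of differences were positive. The typical standard error of a difference was 3.08 points over all cytosines and 7.27 points at those higher in benthic fish.

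This direction depended on the scale. After quantile normalization over the 35 fish, which forces the same distribution of percentages on each liver, 1342 cytosines differed, 633 of them higher and 709 lower in benthic fish. The share higher in benthic fish was then 47.2%, against 87.2% for the deposited percentages. Centring each fish on its own mean left 2819 cytosines, 2295 higher and 524 lower. All 2583 cytosines, chosen for at least 25 points in the same fish, kept the sign of their difference under both scalings. After quantile normalization 962 of them still passed both thresholds. With only the 8 littoral and 11 benthic fish of at least 6 Mio mapped reads, 1066 cytosines differed, 88.4% of them higher in benthic fish.

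The differences were intermediate in size. Cytosines higher in benthic fish had a median of 25.2% in littoral fish (quartiles 18.7 and 33.6%) and 60.9% in benthic fish (quartiles 53.1 and 69.1%). Cytosines lower in benthic fish had a median of 68.1% in littoral fish (quartiles 59.0 and 75.9%) and 33.8% in benthic fish (quartiles 26.9 and 42.0%). The median difference was 33.4 points for the former and −31.8 points for the latter. At least 40 points separated the ecomorphs at 453 cytosines (405 higher and 48 lower in benthic fish), and at least 60 points at 8 (7 higher and 1 lower). The widest differences were 63.7 points upward and 66.6 points downward.

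Individual fish overlapped at nearly all of these cytosines. At 18 of the 147188 cytosines (0.0122%) the 12 littoral and the 12 benthic values did not overlap, and 17 of those 18 were among the 2583 (16 higher and 1 lower in benthic fish). Fish varied more within the benthic than within the littoral ecomorph at 70.4% of the cytosines higher in benthic fish, with median SDs of 20.8 and 16.7 points. At the cytosines lower in benthic fish these SDs were 19.1 and 17.7 points. The spread of percentages depends on their level, and these SDs were not matched by level. Just above the 25-point threshold, 751 cytosines with an adjusted p under 0.05 by limma differed by 25 to 30 points, and just below it 427 differed by 20 to 25 points.

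Riverine fish, which took no part in the contrast, were close to littoral fish at these cytosines. At the 2253 cytosines higher in benthic fish the riverine median was 25.1%, beside 25.2% in littoral fish, and the riverine mean was nearer the littoral than the benthic mean at 2168 of them (96.2%). At the 330 cytosines lower in benthic fish the riverine median was 65.4%, and the riverine mean was nearer the littoral mean at 303 (91.8%). The remaining 85 and 27 cytosines had a riverine mean nearer that of benthic fish. Riverine fish had a median of 64.5% at those 85, beside 37.5% in littoral and 74.8% in benthic fish. At those 27 the riverine median was 26.0%, beside 63.1 and 20.7%. The share with a riverine mean nearer the littoral mean was not computed over all tested cytosines, windows or regions.

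Because the riverine level is measured in other fish, it was used as the starting level of each cytosine. A difference of at least 25 points is bounded by the scale, which ends at 0 and 100%, and littoral levels were close to riverine levels. From a littoral mean over 80% the scale allows no upward call (0 of 78500 cytosines), and from under 20% no downward call (0 of 51342). By the riverine level there were 19 upward calls among 74657 cytosines over 80% and 11 downward calls among 51500 under 20%. The shares by level describe the calls within these bounds. Among 2310 cytosines with a riverine mean of 20 to 30%, 727 (31.5%) were higher in benthic fish and 3 (0.130%) were lower. Shares higher in benthic fish were 19.96% at 10 to 20% riverine methylation and 23.2% at 30 to 40%. They fell off to 9.47% at 40 to 50% and 2.96% at 50 to 60%. Below 10%, where 48719 cytosines lay, only 160 (0.328%) were higher in benthic fish.

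The share of cytosines lower in benthic fish was 2.51% at 50 to 60% riverine methylation, 2.54% at 60 to 70% and 0.917% at 70 to 80%. Above 90%, 4 cytosines were higher and 8 were lower among 51813. At 50 to 60% the numbers in both directions were similar, 73 higher and 62 lower. In all, 69.3% of the 2583 cytosines had a riverine mean of 20 to 80%, a range that held 21031 of the tested cytosines.

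**Figure D1:**
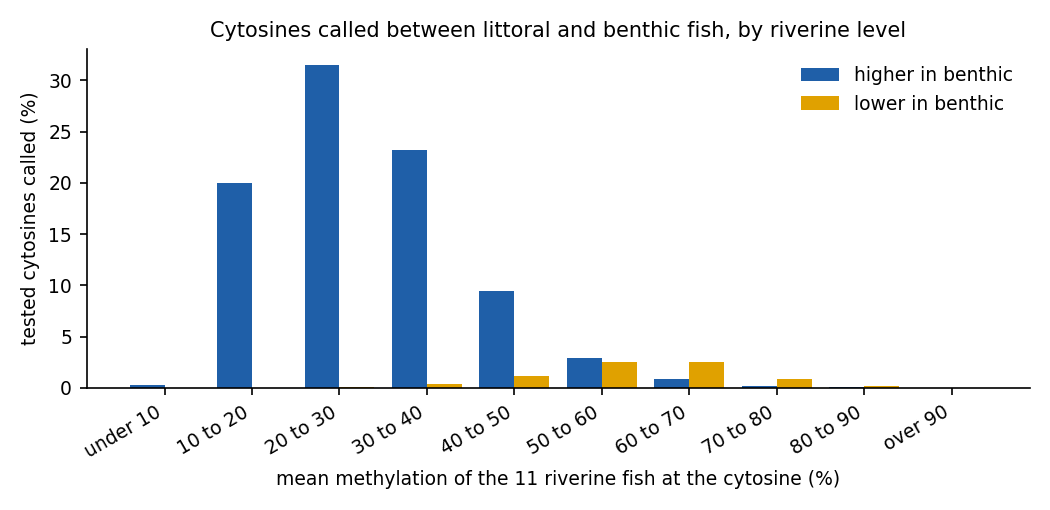
Percentage of tested cytosines that differed between littoral and benthic fish (y axis), by the mean methylation of the 11 riverine fish (x axis, classes in %), with blue bars for higher and yellow bars for lower in benthic fish. The blue bars peak at 31.5% in the 20 to 30% class, and the yellow bars peak at 2.54% in the 60 to 70% class.

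Averages per fish were compared by starting level without choosing cytosines by their difference. Over the cytosines with a riverine mean of 20 to 80%, littoral fish had a mean of 63.2% ± 1.855 (SD, n = 12; lowest 60.3, median 62.6, highest 67.2) and benthic fish of 69.3% ± 2.44 (SD, n = 12; lowest 63.5, median 69.4, highest 73.7). The difference of 6.12 points exceeded the spread between fish (two-sided permutation test, adjusted p = 2.67e-05 over 4 tests, the smallest they can give), and 11 of 12 benthic fish lay above every littoral fish. The exception was benthic fish G10F09 at 63.5%.

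Cytosines with a riverine mean under 20% averaged 2.33% ± 0.239 (SD, n = 12) in littoral and 3.44% ± 0.512 (SD, n = 12) in benthic fish. That difference of 1.11 points passed the same permutation test (adjusted p = 2.67e-05), again with 11 of 12 benthic fish above all littoral fish. Highly methylated cytosines, with a riverine mean over 80%, averaged 93.0% ± 0.531 in littoral and 93.2% ± 0.267 in benthic fish (SD, n = 12 each), and the difference of 0.163 points did not pass the permutation test (adjusted p = 0.361). An average this close to 100% leaves little room for a rise. Over all nuclear cytosines the means were 55.4% ± 0.450 and 56.7% ± 0.526 (SD, n = 12 each), a difference of 1.34 points (permutation test, adjusted p = 2.67e-05). The 11 riverine fish averaged 58.9% ± 2.21 (SD) over the intermediate cytosines, which were picked by their values.

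**Figure D2:**
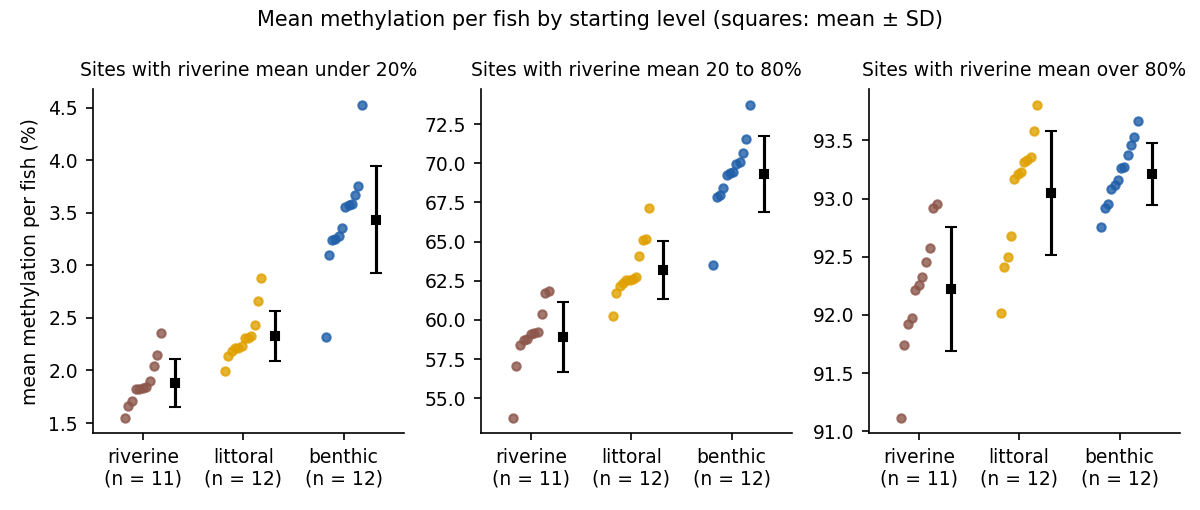
Mean methylation per fish in % (y axes, which do not start at 0) over cytosines of low, intermediate and high riverine methylation, with a point for each fish and squares with bars for mean ± SD. Benthic fish, between 63.5 and 73.7% at intermediate cytosines, lie above littoral fish except G10F09, and the 2 ecomorphs overlap at highly methylated cytosines.

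Each fish was placed between the ecomorphs by cytosines called without it, on a scale with the littoral mean at 0 and the benthic mean at 1. Benthic fish lay between 0.209 and 1.41 (median 0.955) and littoral fish between −0.171 and 0.619 (median 0.0756). Of the benthic fish, 11 of 12 were past the midpoint of the scale, and of the littoral fish 1 of 12. The 2 fish on the far side were benthic G10F09 at 0.209 and littoral G08G02 at 0.619. Riverine fish, placed by the 2583 cytosines, lay between −0.0978 and 0.302 (median 0.0310).

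The positions also spread widely among benthic fish, from G10F09 over G10G01 at 0.575, G10F04 at 0.660 and G10E03 at 0.687 up to G10E07 at 1.22 and G10E09 at 1.41. Positions were computed separately from cytosines higher and lower in benthic fish. Among the 12 benthic fish, a fish far along one set was far along the other (Pearson's r = 0.94, permutation p = 1e-05, the smallest they can give, adjusted p = 8.00e-05 over 8 relations; Spearman's rho = 0.94, adjusted p = 8.00e-05). Without the 2 fish farthest from the median, r was 0.95. Among the 12 littoral fish r was 0.75 (permutation p = 0.00807, adjusted p = 0.0323) and rho 0.50 (permutation p = 0.0990, adjusted p = 0.264). It fell to 0.16 without the 2 fish farthest from the median, so it rests on those fish. Relations of the position with sequencing depth and with mitochondrial methylation did not pass in either ecomorph (lowest adjusted p = 0.109, permutation tests). With depth, r was 0.55 in littoral and −0.22 in benthic fish. With mitochondrial methylation, r was −0.62 in littoral (unadjusted permutation p = 0.0467) and −0.44 in benthic fish. At 12 fish each, relations of this size are not excluded.

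**Figure D3:**
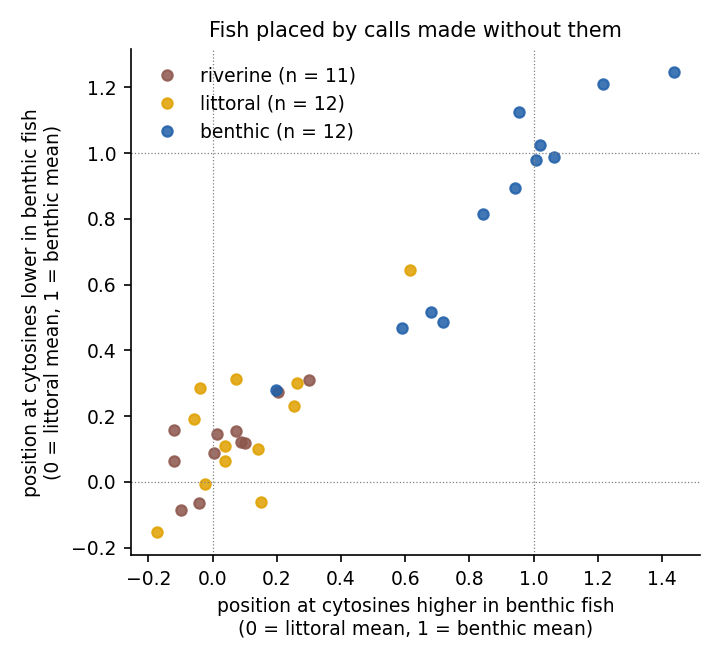
Position of each fish at cytosines higher in benthic fish (x axis) and lower in benthic fish (y axis), where 0 is the littoral and 1 the benthic mean (no unit). Lake fish are placed by cytosines called without them. Benthic G10F09 (0.198 and 0.280) lies among littoral and riverine fish, and littoral G08G02 (0.615 and 0.646) lies among benthic fish.

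For 9 of the lake fish RNA of the liver was also measured, which allowed a check of the tissue. Of 10 hepatocyte markers 3 were matched by symbol (fibrinogen chains fgb and fgg and antithrombin serpinc1), and they summed to 14077 to 30522 TPM in the 4 littoral and 14136 to 28578 TPM in the 5 benthic livers. Of the leukocyte markers 6 of 7 were matched and summed to 127 to 508 TPM in littoral and 159 to 1824 TPM in benthic livers. Of these, cd74 alone was at 121 to 476 TPM in littoral and 150 to 1582.5 TPM in benthic livers. The next highest, lcp1, reached 86.6 TPM, so the leukocyte sum rests largely on cd74. Of the red cell markers 2 of 8 were matched. Rhag, an ammonium transporter of the red cell membrane, was at 0.118 to 1.27 TPM in littoral and 1.76 to 13.4 TPM in benthic livers, without overlap. Gata1, an erythroid transcription factor, overlapped, at 0.0740 to 2.18 and 0.0819 to 0.5004 TPM. Klf1 and tal1, also listed as red cell markers, were not matched. From the RNA the authors report higher Eklf (klf1), EpoR and hemoglobin expression in benthic livers, and Scl/Tal1 expression in benthic fish only.

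Markers of other tissues overlapped between the ecomorphs. Cpb1, the matched marker of the exocrine pancreas (1 of 6), was at 443 to 1620 TPM in littoral and 134 to 663 TPM in benthic livers. Myl1, the matched muscle marker (1 of 5), stayed between 0.0443 and 0.716 TPM in littoral and 0.180 and 0.707 TPM in benthic livers. Every matched marker was above 0 TPM in each of these livers.

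Blood cell markers can be set beside the methylation positions of the same fish. Benthic G10E09, at position 1.41, had a summed level of 13.8 TPM for the red cell markers and 796 TPM for the leukocyte markers. Benthic G10F07, at 1.05, had 9.20 and 348 TPM, and benthic G10G02, at 0.838, had 12.98 and 1824 TPM. Benthic G10E03, at 0.687, had 3.83 and 425 TPM, and benthic G10G01, at 0.575, had 1.843 and 159 TPM. The 4 littoral livers, at positions −0.0264 to 0.267, had 0.826 to 2.44 TPM for the red cell markers and 127 to 508 TPM for the leukocyte markers. The 2 benthic livers with the lowest positions had the lowest red cell levels of the 5, a sum made up mostly of rhag in benthic livers. Neither sum followed the positions throughout. In red cell levels G10F07 (9.20 TPM) lay below G10G02 (12.98 TPM), and in leukocyte levels G10F07 (348 TPM) lay below G10E03 (425 TPM). G10G01, with the lowest position of the 5, was lowest in both sums. The part of blood cells in the methylation differences was not tested.

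Over all tested cytosines, fish of the same ecomorph were more alike than fish of different ecomorphs. The mean absolute difference between fish was 8.66 points within littoral, 8.52 points within benthic and 9.15 points between ecomorphs. The excess of 0.565 points between ecomorphs passed a one-sided permutation test of the 24 labels (p = 3.00e-05). A total of 22 of the 24 fish were nearer their own ecomorph on average, and the exceptions were again G10F09 and G08G02. G10F09 differed by 8.73 points from other benthic and 8.31 points from littoral fish, and G08G02 by 8.30 points from other littoral and 7.91 points from benthic fish. The spread within the ecomorphs did not differ detectably (two-sided permutation test, p = 0.344).

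In a PCA of the 24 lake fish, PC1 carried 7.32% of the variance and averaged −83.9 ± 46.6 in littoral and 83.9 ± 65.8 in benthic fish (SD, n = 12 each). The difference of 168 passed the permutation test (adjusted p = 4.00e-05 over 2 axes). PC2, with 5.14% of the variance, set apart littoral G10G05 at −314 and G10H05 at 260 from all others, which lay between −16.9 and 33.1, and the difference between ecomorphs did not pass (permutation p = 0.838). Without these 2 fish 2136 cytosines differed, 87.9% of them higher in benthic fish, and the difference at intermediate cytosines was 5.99 points.

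The higher methylation of benthic fish extended to every linkage group. The mean over all deposited cytosines of a linkage group was higher in benthic fish for all 22, by 0.764 (NC_036782.1) to 1.98 points (NC_036783.1). Each difference passed the permutation test (highest adjusted p = 0.00096 over 22 tests). These means come from the same fish and are parts of their nuclear mean, so the 22 tests are not independent. They used the deposited percentages, without quantile normalization. The share of cytosines that differed varied between linkage groups, from 0.817% to 2.75% with a median of 1.78%, beside 1.75% over all tested cytosines. It was highest for NC_036783.1 (2.75%), NC_036796.1 (2.52%), NC_036780.1 (2.51%), NC_036800.1 (2.38%) and NC_036787.1 (2.24%). The lowest shares were those of NC_036781.1 (0.817%), NC_036789.1 (0.892%), NC_036797.1 (1.18%), NC_036784.1 (1.29%) and NC_036798.1 (1.48%).

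Direction was less even than the mean. Cytosines higher in benthic fish made up 95.05% of those that differed on NC_036791.1 and 94.7% on NC_036783.1 (161 of 170). On NC_036792.1 they made up 73.0% (84 of 115) and on NC_036790.1 75.0% (60 of 80). Unplaced scaffolds held 213 differing cytosines of 16232 tested (1.31%), and the mitochondrial sequence held 0 of 122 by limma, with 6 at an unadjusted p under 0.05.

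**Figure D4:**
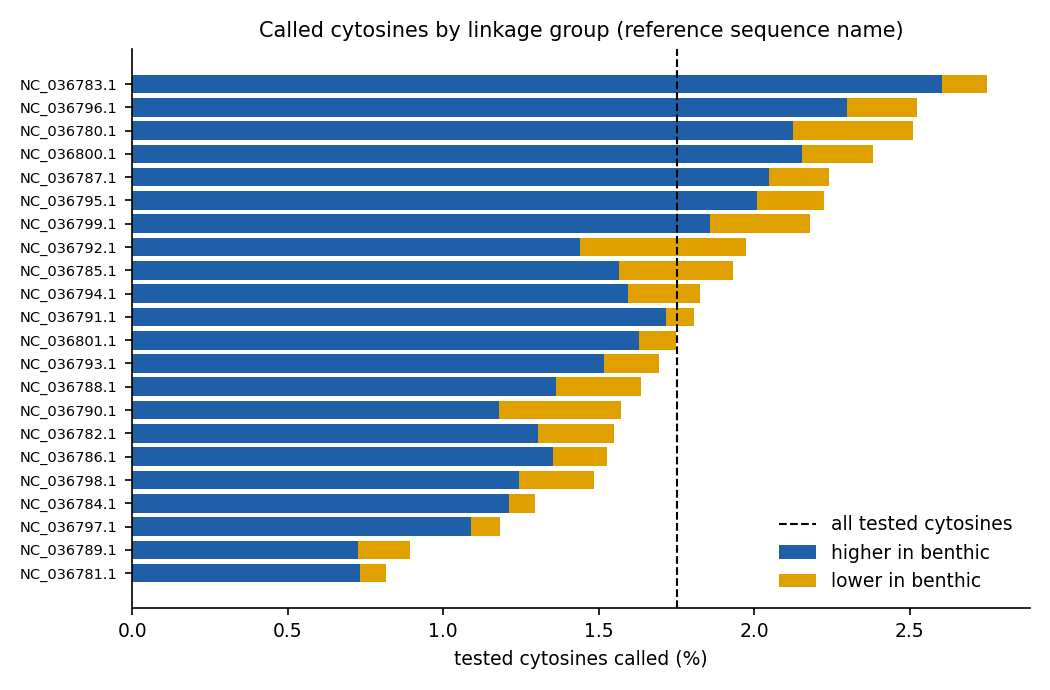
Percentage of tested cytosines that differed between littoral and benthic fish (x axis) on each of 22 linkage groups (y axis), with blue for higher and yellow for lower in benthic fish and a dashed line at 1.75% for all tested cytosines. Shares run from 0.817% to 2.75%, with blue forming at least 73.0% of each bar.

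Along the linkage groups the differing cytosines were unevenly spread. In bins of 1 Mb, 523 of 767 bins held at least 1, and 100 bins (13.04%) held 50% of them. Among 641 bins with at least 100 tested cytosines, the median share was 1.18%, the 90th percentile 3.98% and the highest 17.1%, while 184 bins held none. In steps of 10 kb, 1162 of 27540 steps (4.22%) held at least 1 differing cytosine, 112 held at least 5 and the fullest held 20. Bins and steps hold unequal numbers of tested cytosines, and neighbours on a fragment fall in the same bin. Clustering at these 2 scales apart from that was not tested.

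Clustering was seen at short distance. Of the 2583 differing cytosines, 70.5% had another differing cytosine of a different CG within 50 bp, against 2.44% of all tested cytosines and 11.1% of tested cytosines with a riverine mean of 20 to 80%. Widening the distance to 1000 bp added little, with 74.3% of differing cytosines and 3.65% of all tested cytosines. The share within 50 bp was 72.6% for cytosines higher in benthic fish and 54.8% for those lower. Counting only differing cytosines with a tested neighbour in reach, the share was 80.5% within 50 bp and 80.4% within 1000 bp. The fragments read by RRBS are themselves short and separated by gaps, which limits what any distance beyond a fragment can show.

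Neighbouring CG sites carried nearly the same difference. The nearest tested cytosine of another CG within 50 bp, present for 2262 differing cytosines, had a median of 0.933 of the difference and the same direction in 98.7% of cases. Its difference was under 5 points in 74 cases (3.27%), against 77.6% for the nearest neighbours of all tested cytosines. For cytosines lower in benthic fish the median was 0.883, with 7.41% under 5 points. Among all tested cytosines with such a neighbour, its direction was the same in 76836 of 131781 cases. Cytosines this close can be read by the same 75 bp reads, so they are not separate measurements. Where both strands of a CG were in the table and at least 1 strand differed, both strands differed in 147 of 419 pairs (35.1%). In 418 of these 419 pairs both strands had the same direction, and the strand that did not pass had a median difference of 21.6 points.

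Fish values near 0, 50 and 100% are those that a base difference at the CG itself would give. Over the differing cytosines 42.6% of fish values lay within 10 points of 0, 50 or 100%, beside 43.7% over all tested cytosines with a lake mean of 20 to 80%. The parts near 0, 50 and 100% were 12.4, 22.6 and 7.57% over the differing cytosines, beside 8.47, 21.0 and 14.3%. These sets were not matched by level. A lake mean of 70 to 80% was found at 5359 of the 17040 compared cytosines. That class held 41 differing cytosines that were higher and 20 that were lower in benthic fish. Shares near 0, 50 and 100% depend on the level, so the sets are not directly comparable. Over the 8 cytosines with a difference of at least 60 points the share was 60.4%, but choosing so wide a difference itself favours values near 0 and 100%. Genotypes were not analysed here, and a base difference as a cause was not tested.

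The longest stretch of adjoining 10 kb steps with differing cytosines lay on NC_036800.1. In positions 20590001 to 20650000 of this linkage group, all 6 adjoining steps of 10 kb held differing cytosines, more than any other run, and 51 of 89 tested cytosines (57.3%) differed, all of them higher in benthic fish. The median difference was 31.6 points, and 87 of the 89 differences were positive. In the 100 kb on either side, 5 of 93 tested cytosines differed. Some shorter runs held a higher share, such as 7 of 7 tested cytosines at 30320001 to 30340000 of NC_036786.1. The stretch on NC_036800.1 was chosen by these differences, which are given as a description.

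Averaged over its 89 cytosines, littoral fish were at 22.7% ± 7.90 (SD, n = 12; lowest 15.2, median 21.2, highest 45.2), benthic fish at 52.5% ± 10.2 (SD, n = 12; lowest 29.0, median 52.6, highest 68.7) and riverine fish at 23.0% ± 3.66 (SD, n = 11). In 11 of 12 benthic fish the level was above that of every littoral fish. G10F09 had the lowest benthic value (29.0%) and G08G02 the highest littoral value (45.2%).

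Within and beside the stretch lay 6 multi-site regions, with differences of 32.2 to 56.9 points. At positions 20591162 to 20591196 of NC_036800.1, 5 cytosines averaged 17.0% in littoral, 74.0% in benthic and 28.0% in riverine fish. At 20617185 to 20617238 of NC_036800.1, 7 cytosines averaged 25.7, 74.4 and 23.0%. At 20627670 to 20627725 of NC_036800.1, 6 cytosines averaged 4.79, 49.3 and 17.3%, so that a nearly unmethylated region of littoral fish was at an intermediate level in benthic fish. Among the cytosines of the stretch, a few short fragments stayed near 0% in all 3 populations.

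**Figure D5:**
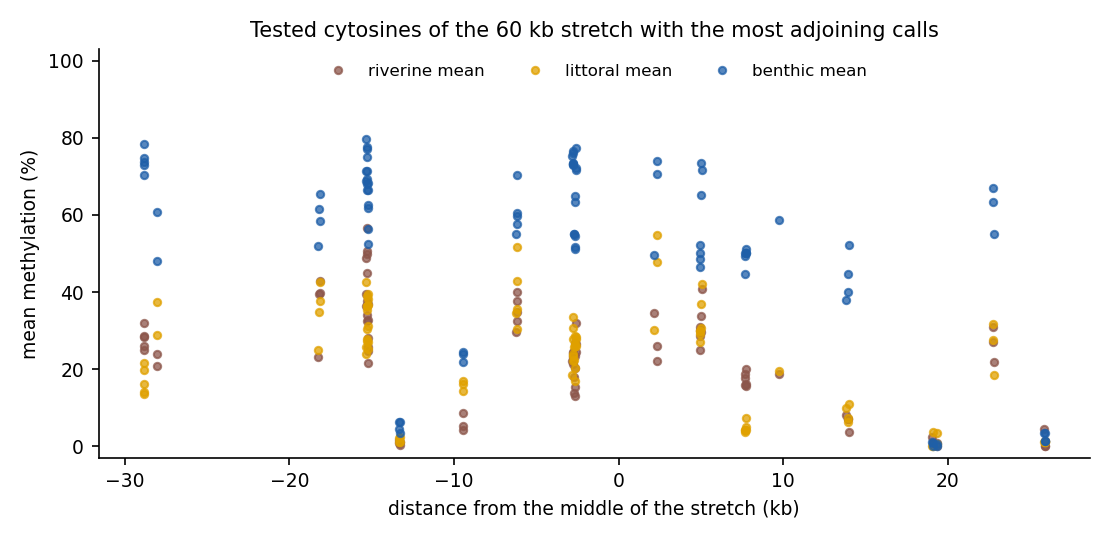
Mean methylation in % (y axis) of the 11 riverine, 12 littoral and 12 benthic fish at each of the 89 tested cytosines of the 60 kb stretch, by distance in kb from its middle (x axis). Benthic means lie above littoral means at 87 of 89 cytosines, by a median of 31.6 points.

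Other runs were shorter. On NC_036783.1, positions 3680001 to 3720000 held 24 differing cytosines of 94 tested (25.5%), all higher in benthic fish, with 91 of 94 differences positive. On NC_036785.1, positions 5530001 to 5560000 held 16 of 40, all higher in benthic fish. Together with the stretch on NC_036800.1 these were the 3 runs of at least 3 steps. A mixed case was NC_036794.1 at 1620001 to 1640000, where 5 of 8 differing cytosines were higher and 3 were lower in benthic fish. On NC_036780.1, the bin from 4000001 to 5000000 held 27 differing cytosines, 20 of them in a single step of 10 kb.

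Single cytosines without overlap between the ecomorphs showed how far individual fish separated. The widest was at position 28223155 of NC_036794.1. Littoral fish were at 18.9% ± 12.7 (SD, n = 12; lowest 0, median 17.2, highest 38.2) and benthic fish at 74.3% ± 18.6 (SD, n = 12; lowest 51.8, median 68.7, highest 100), with riverine fish at 34.8% ± 22.6 (SD, n = 11). The difference was 55.4 points with a standard error of 7.33 (limma, adjusted p = 3.34e-05). Benthic G10F09 was at 63.1% and littoral G08G02 at 32.2%. Each lay with its own ecomorph because only cytosines without overlap were chosen here.

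The smallest adjusted p of this group was at position 5549219 of NC_036785.1. Littoral fish were at 17.2% ± 11.3 (SD, n = 12; lowest 0, median 18.3, highest 34.2), benthic fish at 57.5% ± 14.1 (SD, n = 12; lowest 37.8, median 56.3, highest 88.9) and riverine fish at 12.3% ± 9.56 (SD, n = 11). The difference was 40.3 points with a standard error of 4.77 (limma, adjusted p = 1.03e-05). Position 10302315 of NC_036796.1 started low, with 10.6% ± 7.21 in littoral (SD, n = 12; lowest 0.741, median 8.69, highest 24.4) and 49.9% ± 15.3 in benthic fish (SD, n = 12; lowest 26.2, median 49.8, highest 73.3). Riverine fish were spread from 0 to 56.8% at this cytosine.

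The other 3 named cytosines higher in benthic fish were position 346713 of scaffold NW_020192398.1, position 34095082 of NC_036801.1 and position 38089570 of NC_036785.1, with differences of 45.8, 44.1 and 40.2 points. The gap between the ecomorphs was narrow at the last of these, with a highest littoral value of 37.5% and a lowest benthic value of 38.1%. The single cytosine without overlap that was lower in benthic fish was position 24219521 of NC_036780.1. It was at 60.7% ± 11.2 in littoral (SD, n = 12; lowest 47.8, median 59.6, highest 88.9), 27.0% ± 15.5 in benthic (SD, n = 12; lowest 0, median 29.2, highest 46.7) and 66.1% ± 15.7 in riverine fish (SD, n = 11; limma, adjusted p = 0.000591).

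Wider downward differences came with overlap. At position 535813 of NC_036788.1 littoral fish had a median of 96.9% (lowest 0, highest 100) and benthic fish a median of 0% (lowest 0, highest 38.0), with a difference of −66.6 points and a standard error of 12.2 (limma, adjusted p = 0.00133). Riverine fish were at 44.4% ± 34.1 (SD, n = 11) there. Position 34479536 of NC_036782.1 had medians of 100% in littoral and 12.5% in benthic fish, with ranges of 14.3 to 100% and 0 to 82.9%. The SDs were 38.0 points in littoral and 14.1 points in benthic fish at the former, and 29.3 and 30.8 points at the latter.

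Windows fixed by position gave a view that does not choose regions by their difference. Of 21429 windows of 100 bp with at least 3 tested cytosines, 401 differed (1.87%), with 359 higher (1.68%) and 42 lower (0.196%) in benthic fish. These windows, and the multi-site regions below, used the deposited percentages. Their direction was not examined after quantile normalization. The riverine mean was nearer the littoral mean in 390 of the 401 (97.3%). Windows higher in benthic fish had medians of 26.9% in littoral, 60.3% in benthic and 27.2% in riverine fish. Windows lower in benthic fish had medians of 67.2, 35.8 and 66.4%. The 12 and 12 fish did not overlap in 4 windows of the 21429.

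The widest window was the one at 20591101 to 20591200 of NC_036800.1, inside the longest stretch. Its 5 cytosines averaged 17.0% ± 11.9 in littoral (SD, n = 12; lowest 0, median 15.4, highest 44.8) and 74.0% ± 19.6 in benthic fish (SD, n = 12; lowest 27.3, median 78.3, highest 97.3). The difference was 56.9 points with a standard error of 6.41 (limma, adjusted p = 1.91e-06), and 11 of 12 benthic fish were above all littoral fish. It was followed by 6547101 to 6547200 of NC_036790.1, with 22.0% in littoral and 76.1% in benthic fish, and by 34538901 to 34539000 of NC_036785.1, with 11.8 and 65.8%. At the second of these, 9 of 12 benthic fish were above all littoral fish and the lowest benthic value was 1.96%.

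The other windows named as the 8 widest upward ones differed by 48.4 to 49.9 points. They lay on NC_036786.1 (30703701 to 30703800), NC_036783.1 (26817101 to 26817200), NC_036790.1 (16906001 to 16906100), scaffold NW_020192335.1 (47301 to 47400) and NC_036800.1 (27690701 to 27690800). In the window on NW_020192335.1 no benthic fish exceeded the highest littoral fish, which was at 100%, although the medians were 30.3 and 95.3%. A difference of means thus came both from shifts of nearly all fish and from unequal numbers of low and high fish.

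The 8 widest downward windows differed by −36.7 to −48.2 points. The one at 38808901 to 38809000 of NC_036785.1 averaged 78.9% ± 22.6 in littoral and 30.7% ± 11.9 in benthic fish (SD, n = 12 each), and 8 of 12 benthic fish were below all littoral fish (limma, adjusted p = 9.95e-05). The one at 14422301 to 14422400 of NC_036785.1 held 7 cytosines, all of which differed, and averaged 74.1% ± 12.6 and 36.5% ± 20.1 (SD, n = 12 each), with 10 of 12 benthic fish below all littoral fish. At 7818401 to 7818500 of NC_036798.1 the means were 86.6% in littoral and 38.4% in benthic fish, a difference of −48.2 points. Littoral values ran from 8.33 to 100% (median 94.95%) and benthic values from 0 to 94.7% (median 34.6%).

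Runs of at least 4 differing cytosines of a single direction, each at most 100 bp from the next, were joined to 170 multi-site regions, 156 higher and 14 lower in benthic fish. They held 968 of the 2583 differing cytosines (37.5%), had 4 to 15 of them each and were 7 to 283 bp long (median 51.5 bp). Of the 1120 tested cytosines inside them 86.4% differed, 0 regions held a cytosine that differed the other way, and in 165 of 170 every tested cytosine had the same direction. Many regions are shorter than a 75 bp read, so their cytosines can share reads and are not separate measurements. Values below describe regions that were chosen by these differences.

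Regions higher in benthic fish had medians of 25.2% in littoral, 60.7% in benthic and 24.04% in riverine fish, and those lower had medians of 68.2, 38.4 and 63.8%. The riverine mean was nearer the littoral mean in 168 of 170 regions. They lay on 21 of the 22 linkage groups and, for 14 of them, on unplaced scaffolds. NC_036796.1 held most, with 14 (13 higher in benthic fish), and NC_036780.1 and NC_036783.1 held 13 each, 12 and 13 of them higher. On NC_036792.1, 6 of 9 were higher.

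The region with the most differing cytosines was the one at 20604661 to 20604795 of NC_036800.1, with 15 of 16 tested. It averaged 32.6% ± 13.4 in littoral (SD, n = 12; lowest 14.5, median 30.8, highest 66.5) and 68.3% ± 10.9 in benthic fish (SD, n = 12; lowest 44.7, median 70.4, highest 82.7). Its cytosines differed by 25.1 to 55.8 points. At 14796797 to 14796930 of NC_036795.1, 14 of 18 cytosines differed in a region close to unmethylated in riverine fish (0.458% ± 0.806, SD, n = 11). Littoral fish were at 6.34% ± 9.99 (SD, n = 12; lowest 0, median 1.18, highest 31.6) and benthic fish at 39.4% ± 28.3 (SD, n = 12; lowest 0, median 39.1, highest 77.7), so that benthic fish ranged from unmethylated to highly methylated.

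The third, at 24068003 to 24068052 of NC_036800.1, had 14 differing cytosines of 14 and averaged 21.9% in littoral, 54.1% in benthic and 12.1% in riverine fish. The remaining 5 named regions lay on NC_036792.1 (2079858 to 2079923), NC_036796.1 (34646567 to 34646683), NC_036785.1 (186970 to 186999) and, for 2 of them, on scaffold NW_020192468.1 (151215 to 151497 and 119091 to 119241). They differed by 32.1 to 39.98 points, and in 9 to 11 of 12 benthic fish each was above all littoral fish. Scaffold NW_020192468.1 held 3 regions in all, each of them higher in benthic fish.

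Only 3 regions separated all fish of the ecomorphs. At 28223127 to 28223170 of NC_036794.1, the region around the widest single cytosine, littoral fish reached up to 31.0% and benthic fish down to 44.7%. At 37515153 to 37515345 of NC_036785.1 these limits were 40.6 and 50.5%, and at 10302272 to 10302315 of NC_036796.1 they were 23.9 and 29.1%. The mean differences were 43.3, 42.0 and 34.9 points.

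Among regions lower in benthic fish, the one with the most differing cytosines, 9 of 10, was at 841344 to 841453 of scaffold NW_020192356.1. It averaged 71.9% ± 11.3 in littoral and 38.6% ± 21.4 in benthic fish (SD, n = 12 each). The region at 14422340 to 14422403 of NC_036785.1, with 8 of 8, averaged 76.4% ± 11.8 in littoral, 37.4% ± 19.9 in benthic (SD, n = 12 each) and 86.1% ± 10.2 in riverine fish (SD, n = 11). A different order was found at 1739111 to 1739230 of NC_036786.1, where riverine fish were at 2.36% ± 1.98 (SD, n = 11), benthic fish at 13.7% ± 9.54 and littoral fish at 37.6% ± 12.2 (SD, n = 12 each). There the littoral ecomorph, not the benthic, was the one farther from riverine fish.

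Fish differed in how many of these regions they carried. Of the 156 regions higher in benthic fish, the number in which a benthic fish was above all 12 littoral fish was lowest in G10F09 (20), had a median of 107.5 and was highest in G10E09 (140). A littoral fish was below all 12 benthic fish in 17 (G08G02) to 125 (G08H08) of the 156 regions, with a median of 99.5. The median level over these regions was 32.4% in G10F09 and 79.0% in G10E09, and 16.4% in G08H08 and 44.8% in G08G02. In the 14 regions lower in benthic fish, G10F02 was below all littoral fish in 14 and G10G01 in 2.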

How the data were processed

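RRBS libraries were prepared from liver DNA, multiplexed in pools with the ecomorphs spread over them, and sequenced as 75 bp single-end reads. The pool of each fish is not given in the sources used here, and some tissues were first stored in ethanol, for fish not given in the sources used here. The effect of both was not tested. All 12 benthic fish had G10 IDs, against 7 of the 12 littoral fish, and the labels do not say what an ID series stands for. With only these 7 littoral fish, 1965 cytosines differed, 85.0% of them higher in benthic fish, and 1661 were among the 2583. The authors trimmed reads with Trim Galore, aligned them with Bismark to the SNP-corrected *M. zebra* UMD2a genome and, for CG cytosines found in all 35 fish, deposited percent methylation without normalization. The versions used for the RRBS reads are not given in the sources used here. For RNA, the authors deposited TPM from kallisto, which were used only for marker genes, summed by symbol. Cytosines were assigned to no gene, since an annotation of this build was not used here, and no sequence is printed for the same reason.

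Linear models of the percentages used R 4.3.3 and limma 3.58.1 (group means of the 3 populations in a single fit, moderated without trend), with Benjamini–Hochberg adjustment over all varying cytosines or windows. Percentages without read counts allow no count model. Values per fish were compared by permutation tests with 100000 resamples in scipy 1.17.1, and data handling used Python 3.11.15 with numpy 2.4.6 and pandas 2.3.3, and in R the package data.table (version 1.17.8). Fish were sampled separately, so the spread is that between individuals. Members, lists and tests were chosen with earlier results of these data known. Named were the 6 cytosines with the largest difference in each direction among those without overlap between fish (1 per kb), where only 1 was lower in benthic fish, and the 8 widest windows in each direction. Also named were the 8 regions with the most differing cytosines and the 5 linkage groups with the highest and with the lowest share. Cytosines lower in benthic fish with overlap, regions lower in benthic fish, regions and windows without overlap, and the stretches of 10 kb steps were chosen after their values were seen. Positions are given as deposited, with start equal to end. Of the deposited columns 0 were left unassigned.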

Additional observations from a re-analysis of the deposited data

Results flagged for a closer look

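Both flags concern the marker sums of the 4 littoral RNA livers, and chance flags about 1 in 20 groups. The summed level of the leukocyte markers in G10G05, 508 TPM, stood far above that of the other 3 littoral livers, which lay between 127 and 191 TPM. Most of it was cd74, whose highest littoral value was 476 TPM. G10G05 is also a fish that stood apart on PC2 of the methylation values. The other such fish, G10H05, lay at the opposite end of PC2 and had the lowest leukocyte sum of the 4 littoral livers, 127 TPM. The muscle marker myl1 had a highest littoral value of 0.716 TPM, far above the other 3 littoral livers.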

How the results depend on the processing

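Refits that changed only the test, the set of cytosines or the riverine fish left the differences in points as they were. Direction was therefore fixed there, and in the test on log2 ratios it was taken from the percentages. All 2583 cytosines kept their direction under the other refits too, but they were chosen for at least 25 points in the same fish. Their number moved by over 1.5 times in these settings: 1066 for the deeper libraries alone (at least 6 Mio mapped reads), which left 8 littoral and 11 benthic fish, 453 and 8 at differences of at least 40 and 60 points, 1466 at an adjusted p under 0.01, and 1342 after quantile normalization. Leaving out each fish gave 2035 (without G10E09) to 3240 cytosines (without G10F09), 85.6 to 88.4% of them higher in benthic fish. The other settings gave 1865 (log2 ratios) to 3324 cytosines (at least 10 points). Windows that differed numbered 246 of 13109 tested with at least 4 and 136 of 7693 with at least 5 cytosines per window. In the main setting they numbered 401 of 21429, so these counts fell along with the windows tested. Without each fish, windows numbered 321 to 483. Regions numbered 301 with at least 3 and 102 with at least 5 differing cytosines. The share of differing cytosines at 20 to 80% was 98.99% with the class set by the 24 lake fish and 71.7% with that set by littoral fish, levels that include the contrast itself. Without each fish, the mean difference was 1.23 to 1.45 points over nuclear, 1.01 to 1.21 over low, 5.71 to 6.64 over intermediate and 0.0687 to 0.232 over high cytosines, and no call changed. Leaving out G10G05 and G10H05, centring, quantile normalization and trended moderation (2364 cytosines) were chosen after seeing the data. No paired analysis was possible because the RRBS labels give fish IDs and no replicate numbers shared between ecomorphs. Reads per value are unknown, so single values carry no interval.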
